A study of Mus musculus with 2 samples.

Results

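The genes described here are those of collagen crosslinking and processing. They are the lysyl oxidases Lox, Loxl1, Loxl2 and Loxl3, the lysyl hydroxylases Plod1, Plod2 and Plod3, the prolyl hydroxylase subunits P4ha1 and P4ha2, and the collagen chaperone Serpinh1. They were chosen by name and matched by Ensembl identifier, and all 10 were found among the 30406 genes listed for both libraries.

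Procollagen chains are modified in the endoplasmic reticulum before they leave the cell. Prolyl hydroxylases give the triple helix its stability, lysyl hydroxylases modify the lysines that later form crosslinks, and Serpinh1 binds the folded helix. Outside the cell, lysyl oxidases turn lysine and hydroxylysine into aldehydes that join neighbouring collagen molecules. In liver this makes the scar laid down by stellate cells and portal fibroblasts stiffer and harder to degrade.

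The data are single-cell RNA sequencing of liver cells from healthy mice and from mice of both sexes injected for weeks with carbon tetrachloride (CCl4) in corn oil, a toxin activated in hepatocytes. Both groups carried Col1a2CreER:Rosa26tdTomato, in which an inducible Cre under the promoter of a collagen gene can switch on a red reporter. The reporter was not used here. The study's methods describe digestion with pronase and collagenase and purification on a Nycodenz density gradient. They also state that most CD45-positive leukocytes were removed with magnetic beads, so the immune-like cells below are those that remained. Each group was 1 library, and how many mice it pooled is not given in the sources used here. Differences between the libraries therefore have no replicate check, and injury, animal and library preparation cannot be told apart. The libraries also list different numbers of genes, 31053 and 32285, and may have been counted with different annotations, whose part in the differences between them was not tested.

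The healthy library held 6297 cells and 51122846 UMIs, and the CCl4 library 8460 cells and 97611831 UMIs. After filtering, 5602 and 7314 cells remained, with medians of 6783.5 and 11876 UMIs. The libraries shared 10 cell barcodes. Cells were clustered and classes named from marker genes, none of them a member. The healthy library held 3511 endothelial-like, 1273 cholangiocyte-like, 238 mesothelial-like, 190 hepatocyte-like and 10 mesenchymal-like cells. The CCl4 library held 3207 mesenchymal-like, 1709 mesothelial-like and 508 immune-like cells, with 9 hepatocyte-like, 23 cholangiocyte-like and 14 endothelial-like cells. Unnamed clusters took 6.43% of healthy and 25.2% of CCl4 cells. With these names, mesothelial-like was the one class that bears on the members with many cells in both libraries. This depends on the naming: between 586 and 825 CCl4 cells were endothelial-like under 5 alternatives, against 14 here, and a CCl4 cluster of 642 cells with endothelial markers is described among the other observations. Hepatocyte-like cells were scarce in both libraries, and the part of the density gradient in this was not tested.

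Levels are summed UMIs of a gene per 1000000 UMIs of a population (CPM) with an exact Poisson 95% interval, and ratios of CPM carry an exact conditional binomial 95% interval. Both intervals cover counting error only. Because one UMI stands for one 3′ end, CPM does not grow with transcript length.

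Upstream sequence was taken from RefSeq (GRCm38.p6). Windows of 5 of the 10 members were kept, and those of the others, Lox among them, were missing or left out. All 5 are shown, since they differ in their relation to collagen below: P4ha1, P4ha2 and Serpinh1 were at least 1.5-fold higher in cells with more collagen, but not with quintiles formed within each cluster, and Plod1 and Plod3 were not. Each run is the 250 bases before the gene start, 5′ to 3′ on the gene's strand. Capitals mark ACGTG and GCGTG, the core of the sequence bound by hypoxia-inducible factors, on either strand.
P4ha1 (chr10:59323046-59323295, plus strand): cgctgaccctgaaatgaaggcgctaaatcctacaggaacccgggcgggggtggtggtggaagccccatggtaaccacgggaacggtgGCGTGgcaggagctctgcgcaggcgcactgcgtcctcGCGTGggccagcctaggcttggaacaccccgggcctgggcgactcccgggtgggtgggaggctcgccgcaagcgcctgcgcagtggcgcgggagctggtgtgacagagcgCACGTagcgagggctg
P4ha2 (chr11:54100674-54100923, plus strand): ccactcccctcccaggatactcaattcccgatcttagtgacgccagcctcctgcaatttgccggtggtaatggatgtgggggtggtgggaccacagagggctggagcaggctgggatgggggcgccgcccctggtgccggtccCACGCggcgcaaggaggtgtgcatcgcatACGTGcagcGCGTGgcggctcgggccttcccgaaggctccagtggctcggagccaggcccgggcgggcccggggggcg
Serpinh1 (chr7:99353240-99353489, minus strand): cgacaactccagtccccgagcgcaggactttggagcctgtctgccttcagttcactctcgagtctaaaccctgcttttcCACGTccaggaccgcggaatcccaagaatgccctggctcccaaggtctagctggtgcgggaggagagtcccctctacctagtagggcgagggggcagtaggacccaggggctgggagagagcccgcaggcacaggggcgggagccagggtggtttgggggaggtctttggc
Plod1 (chr4:147936777-147937026, minus strand): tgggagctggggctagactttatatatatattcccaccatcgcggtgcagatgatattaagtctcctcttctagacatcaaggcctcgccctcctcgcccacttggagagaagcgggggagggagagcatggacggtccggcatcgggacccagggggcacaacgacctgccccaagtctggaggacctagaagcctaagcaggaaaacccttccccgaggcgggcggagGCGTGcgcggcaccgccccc
Plod3 (chr5:136986769-136987018, plus strand): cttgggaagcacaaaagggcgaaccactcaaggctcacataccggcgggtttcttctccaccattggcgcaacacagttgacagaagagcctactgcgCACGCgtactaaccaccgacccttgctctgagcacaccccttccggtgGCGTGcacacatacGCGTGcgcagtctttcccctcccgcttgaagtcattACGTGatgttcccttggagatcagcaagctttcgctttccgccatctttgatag
Plod3 held the most matches, 1 ACGTG and 3 GCGTG, P4ha1 and P4ha2 each held 1 ACGTG and 2 GCGTG, Serpinh1 held 1 ACGTG, and Plod1 held 1 GCGTG. One or the other was present in 38.6% of the 32851 windows of this length, ACGTG in 16.6% and GCGTG in 28.2%. The heat shock element GAANNTTC, present in 6.69% of all windows, was in none of these 5. These are matches of letters only, and their number did not follow the relation to collagen among the 5 members shown.

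Within the CCl4 library, mesenchymal-like and mesothelial-like cells held 51.8% and 37.3% of all UMIs. Loxl1 (58.7% and 38.9%) lay above this base share in both classes, and Plod3 (52.9% and 36.5%) lay near it. Lox (49.5% and 48.4%) was below it in mesenchymal-like and above it in mesothelial-like cells. Plod1 (71.1% and 13.3%) was above it in mesenchymal-like and below it in mesothelial-like cells, and below it when both classes are counted together. Serpinh1 was the most abundant, at 1144 CPM (1134 to 1154) in mesenchymal-like and 922 CPM (911 to 932) in mesothelial-like cells. Among the lysyl oxidases, Loxl1, which is known for its part in elastic fibres, stood at 299.9 and 275 CPM and Loxl2 at 241 and 106 CPM in these classes. Lox was lower, at 104 CPM in mesenchymal-like and 141 CPM in mesothelial-like cells, and Loxl3 lower still at 33.0 and 9.09 CPM. The hydroxylases ranged in mesenchymal-like cells from 145 CPM for Plod2 to 14.6 CPM for P4ha2.

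**Figure D1:**
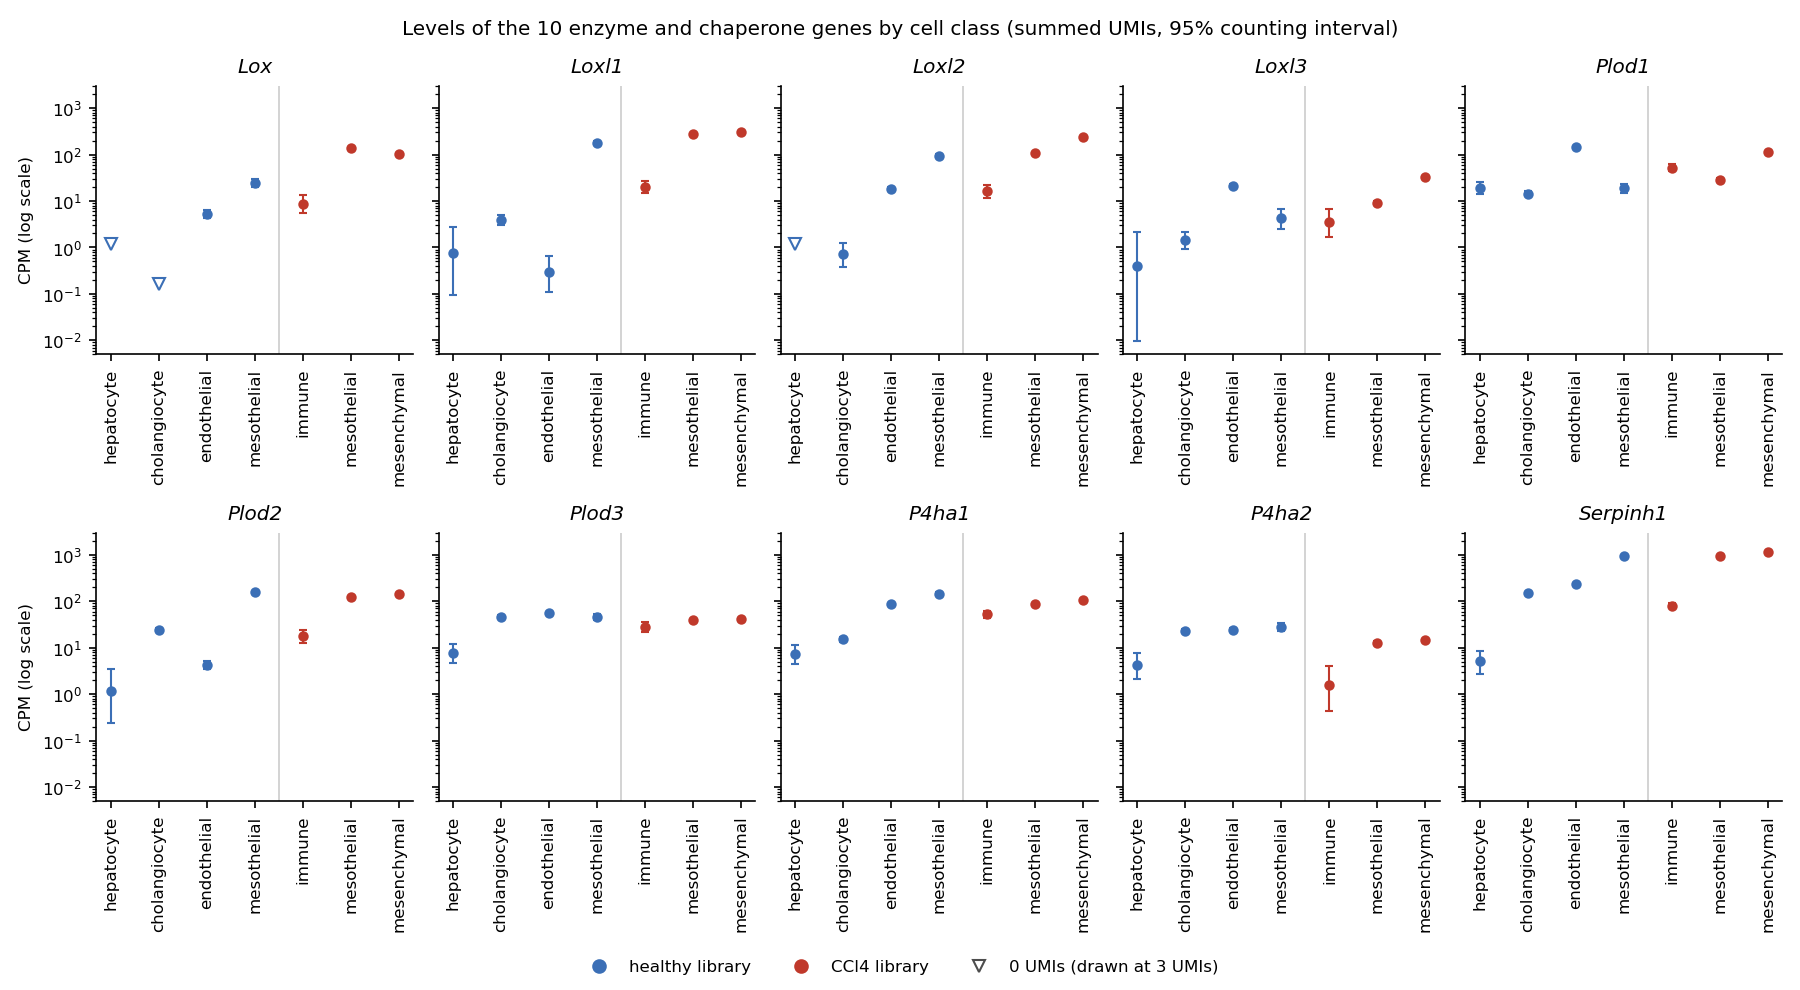
CPM of each member (log scale) in the classes with at least 50 cells, healthy in blue and CCl4 in red, with 95% counting intervals; all names mean marker-based "-like" classes, and open triangles mark 0 UMIs, drawn at 3 UMIs. Lox, Loxl1 and Loxl2 are highest in mesothelial and mesenchymal cells, whereas Plod1 is highest in endothelial cells.

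Immune-like cells should make little fibrillar collagen, so their collagen UMIs were taken as a guide to the background in this library. How much of them came from free RNA or mixed droplets was not tested. In the 508 CCl4 immune-like cells, Col1a1 stood at 5.74%, Col3a1 at 4.63% and Col1a2 at 12.8% of the mesenchymal-like level, and 64.2% of these cells had a Col3a1 UMI. The level was not the same in each immune class. Col1a1 ranged from 3.27% in neutrophil-like to 13.4% in T and NK-like cells. Loxl2 (6.66%), Loxl1 (6.83%), Serpinh1 (7.06%), Lox (8.51%), Loxl3 (11.0%), P4ha2 (11.0%) and Plod2 (12.2%) lay above Col1a1 and Col3a1. They lay below Col1a2 only, which rested on 42 UMIs. The interval of Plod2 (8.85% to 16.4%) lay above that of Col1a1 (5.30% to 6.21%), and those of the others overlapped it. Plod1, P4ha1 and Plod3 lay above all 3 collagens, with 46.3%, 48.3% and 69.0% of the mesenchymal-like level.

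Counted by ratio, 9 of the 10 members were at least 2-fold higher in mesenchymal-like than in immune-like cells, where 22.9% of all 9636 genes measured were, and 0 were lower, where 17.9% of genes were. A gene was counted when its ratio passed the fold and its interval left out 1. Ratios ran from 8.20 for Plod2 (interval 6.11 to 11.3) to 15.0 for Loxl2 (11.0 to 21.0) in 7 members. Their size depended on the removal of doublets. With no doublets removed, the log2 ratio was 2.06 in place of 3.55 for Lox, 2.21 in place of 3.87 for Loxl1 and 2.26 in place of 3.82 for Serpinh1, all still past 2-fold. Plod1 (2.16) and P4ha1 (2.07) only just passed, and Plod3, at 41.4 against 28.5 CPM, did not (1.45, interval 1.14 to 1.86). Within the immune-like cells, the 179 macrophage and monocyte-like cells held most of the Plod1, at 101 CPM (82.2 to 122), which is 89.9% of the mesenchymal-like level. Plod3 was 53.6 CPM there. T and NK-like, B and plasma-like and neutrophil-like cells held between 14.8 and 21.1 CPM of Plod1. P4ha1 was 71.8 CPM in the macrophage and monocyte-like cells. In contrast, 16.2% of these cells had a Serpinh1 UMI against 98.1% of mesenchymal-like cells (median depths 4923 and 13924 UMIs).

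After thinning every cell to 2000 UMIs, the order of the members by share of mesenchymal-like cells with a UMI was the same as by CPM. A Serpinh1 UMI was expected in 85.8% of mesenchymal-like and 9.67% of immune-like cells, a Loxl1 UMI in 40.3% and 2.14%, and a Lox UMI in 16.5% and 1.14%. Thinning left out 58 mesenchymal-like and 94 immune-like cells that were shallower. Without thinning, Lox was seen in 58.3% of mesenchymal-like and 2.76% of immune-like cells.

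Other genes of collagen processing followed the same contrast. Of a list of 26, 20 were measured, 15 were at least 2-fold higher in mesenchymal-like than immune-like cells and 2 were lower. The highest ratios were those of Adamts2, which removes the amino-terminal propeptide of procollagen (431 against 19.7 CPM, ratio 21.9), Fkbp7 (ratio 20.1) and the prolyl 3-hydroxylase family gene P3h3 (ratio 19.2). Median log2 ratios were 3.35 for this list, 3.19 for the members and 0.11 for all genes. Hypoxia-responsive genes did not share this, with 1 of 11 measured of a list of 15 higher and 0 lower.

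The healthy library showed how these genes were spread over the cells captured without injury. There the members did not stay together, and each family was split between cell classes. Mesothelial-like cells, 8.6% of the library's UMIs, held 86.3% of Loxl1, 53.6% of Plod2, 48.6% of Loxl2 and 47.1% of Lox UMIs. Endothelial-like cells, 43.5% of UMIs, held 89.4% of Loxl3, 87.0% of Plod1 and 65.6% of P4ha1 UMIs. They also held 51.0% of Lox and 47.5% of Loxl2 UMIs, nearer to their share of all UMIs. Only 10 mesenchymal-like cells were captured, with 0.177% of UMIs, so these shares depend on which cells entered the library. In those 10 cells Loxl1 was 295 CPM (24 UMIs) and Loxl2 172 CPM (14 UMIs), against 178 and 94.1 CPM in mesothelial-like cells.

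**Figure D2:**
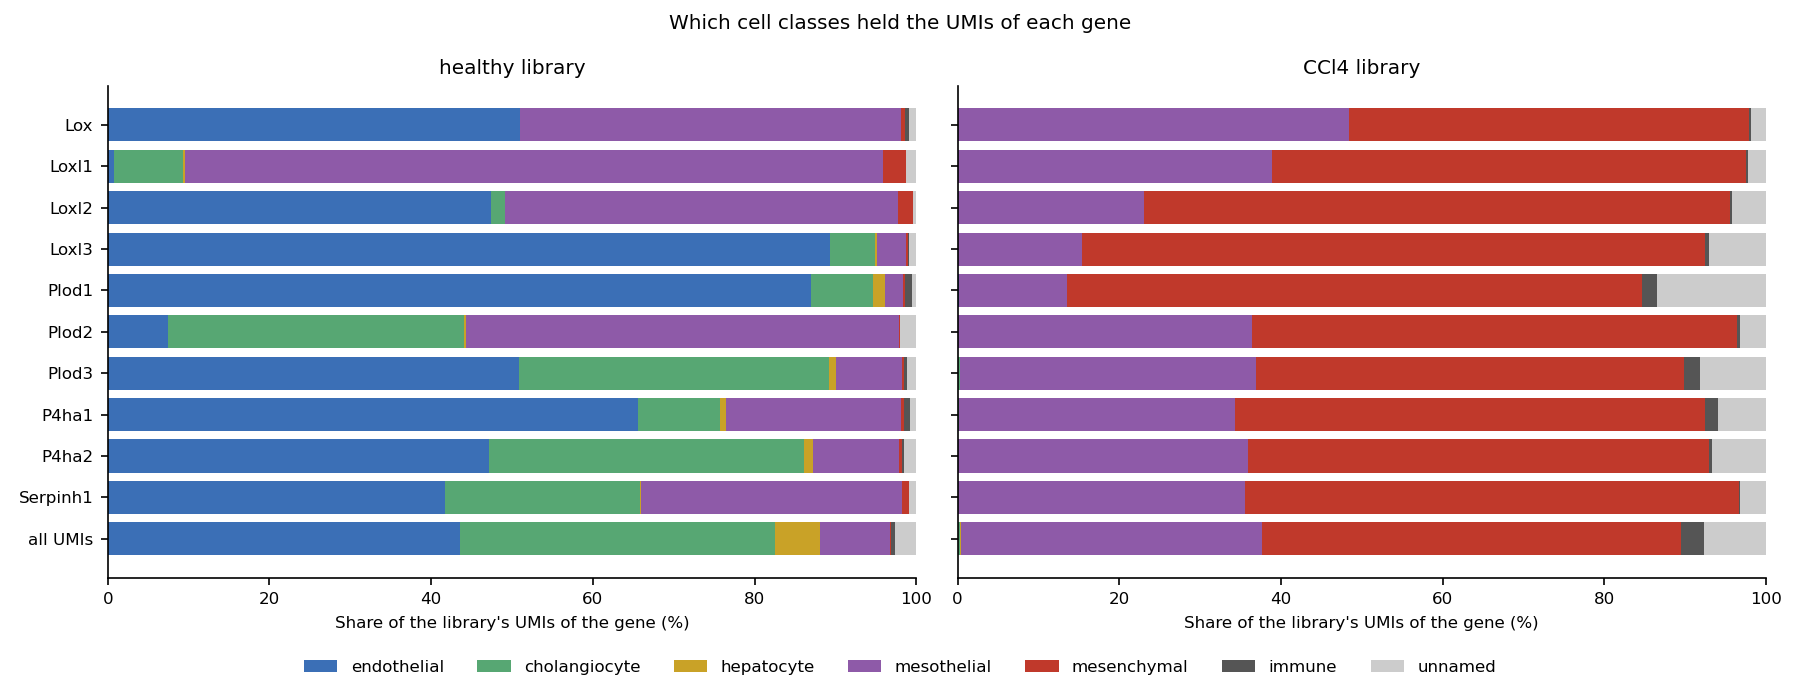
Share of each member's UMIs held by each marker-based class in the healthy (left) and CCl4 library (right), with the share of all UMIs in the bottom bar. In the healthy library Loxl1 lies mostly in mesothelial (86.3%) and Loxl3 and Plod1 in endothelial cells (89.4% and 87.0%); in the CCl4 library mesenchymal and mesothelial cells hold 51.8% and 37.3% of all UMIs, and the members are to be read against that bar.

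Between these classes, 5 members were at least 2-fold higher in healthy mesothelial-like than healthy endothelial-like cells, against 17.0% of all 9891 genes measured, and 2 were lower, against 24.2% of genes. The largest difference was that of Loxl1, at 178 CPM (705 UMIs) and 0.299 CPM (6 UMIs), a ratio of 594 (interval 272 to 1625). Plod2, which hydroxylates the end regions of collagen where crosslinks form, was 157 and 4.29 CPM, a ratio of 36.5 (29.1 to 46.3). Loxl2 (5.18), Lox (4.68) and Serpinh1 (3.92) were also higher. The log2 ratio of Lox, 2.23 here, was 4.29 with each library clustered on its own, where 1891 healthy cells were endothelial-like.

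The lower members were Plod1 and Loxl3. Plod1, which hydroxylates lysines of the helix, was 18.9 CPM in mesothelial-like and 147 CPM in endothelial-like cells, a ratio of 0.13 (0.10 to 0.16). Loxl3 was 4.29 and 20.9 CPM, a ratio of 0.20 (0.12 to 0.33). Plod3 (0.82), P4ha2 (1.14) and P4ha1 (1.67) lay within 2-fold. Of the 19 collagen-processing genes measured, 9 were higher in mesothelial-like cells and 3 lower. Adamts2 (172 against 0.897 CPM), P3h4 (277 against 3.39 CPM) and the procollagen C-proteinase Bmp1 (39.3 against 1.80 CPM) were among those higher, whereas P3h2 had 0 UMIs in mesothelial-like and 272 in endothelial-like cells. Of 13 hypoxia genes measured, 5 were higher and 3 lower. The median log2 ratio of all genes was -0.30, that of the members 1.35.

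Within each family, the leading gene therefore changed with the class. Plod1 made up 71.1% of Plod UMIs in healthy endothelial-like cells and 8.56% in mesothelial-like cells. Plod2 made up 2.07% and 70.9%. Cholangiocyte-like cells were led by Plod3 instead, which is also a glycosyltransferase, with 55.1% of Plod UMIs. They were also the only class with at least 50 cells in which P4ha2 outnumbered P4ha1, with 59.9% of the pair's UMIs against 16.0% in healthy mesothelial-like cells.

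**Figure D3:**
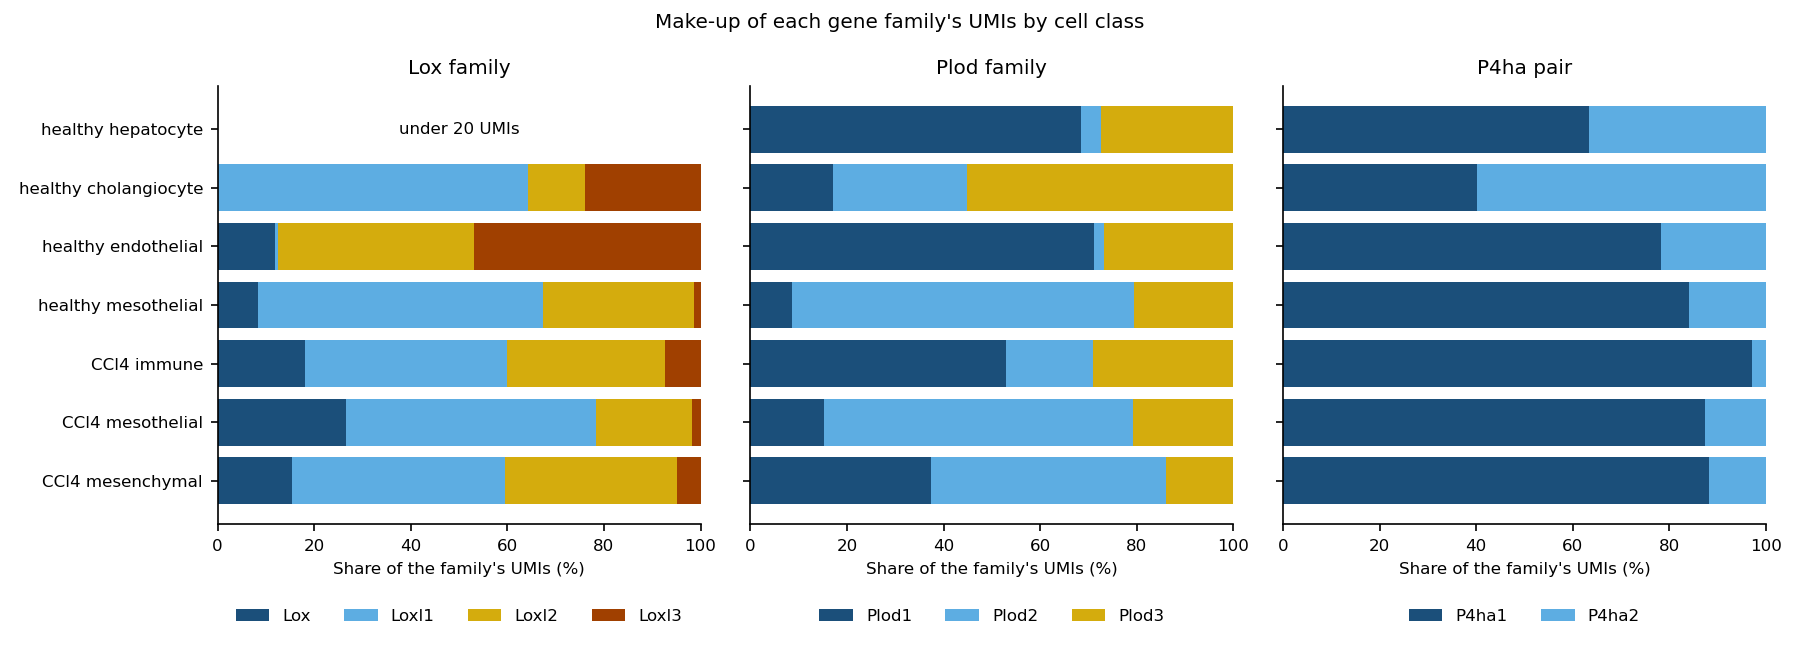
Share of each family's UMIs taken by each member in the marker-based classes with at least 50 cells. The Plod family is led by Plod1 in endothelial (71.1%), Plod2 in healthy mesothelial (70.9%) and Plod3 in cholangiocyte cells (55.1%); hepatocytes had under 20 Lox family UMIs and are left blank there.

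Cholangiocyte-like cells had 0 Lox UMIs of 17960728, which allows up to 0.167 CPM, and 3.90 CPM of Loxl1 and 0.724 CPM of Loxl2. Their Serpinh1 was 153 CPM. Hepatocyte-like cells had 0 UMIs of Lox and Loxl2, allowing up to 1.17 CPM, and low levels of the other members, from 0.389 CPM of Loxl3 to 19.5 CPM of Plod1. Their Serpinh1 was 5.06 CPM (2.69 to 8.65), the lowest of the classes with at least 50 cells. The CCl4 library had 9 hepatocyte-like cells, and no comparison of hepatocytes was made. A further cluster with 12 hepatocyte markers, 137 healthy and 320 CCl4 cells, stayed unnamed for its low depth, and 216 CCl4 cells were hepatocyte-like when each library was clustered on its own.

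Within the endothelial-like cells, most Lox UMIs came from few cells. The 220 cells of a cluster led by Vwf, Gja5, Edn1 and Bmx, genes of vessels rather than sinusoids, held 92 of 107 Lox UMIs, at 48.6 CPM. This lay above the 25.0 CPM of Lox in healthy mesothelial-like cells. The 2803 cells of the sinusoidal-type clusters, led by Clec4g and Dnase1l3, held 7 UMIs, at 0.404 CPM, a ratio of 120 (56.2 to 308). Plod2 was also higher in the vessel-type cells, at 16.4 against 2.94 CPM, a ratio of 5.57 (3.45 to 8.87). These 2 members were at least 2-fold higher, where 6.80% of 9117 genes were, and Plod1 (70.8 against 156 CPM) and Loxl3 (9.51 against 22.2 CPM) were lower, where 7.82% were. Serpinh1 (1.21) and P4ha1 (0.88) lay within 2-fold, and Loxl1 had 1 and 5 UMIs. Of 16 collagen-processing genes measured, 3 were higher, among them Fkbp10 (19 against 7 UMIs), and 2 lower. Of 12 hypoxia genes measured, 1 was higher and 1 lower. This comparison of clusters was added after the data were seen.

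The comparison of CCl4 with healthy mesothelial-like cells addressed how the members stood in the same class with and without injury. Lox was the member that differed most. It was 141 CPM (137 to 145) in CCl4 and 25.0 CPM (20.3 to 30.4) in healthy mesothelial-like cells, a ratio of 5.65 (4.63 to 6.96). Serpinh1 did not differ beyond counting error, at 922 and 927 CPM (ratio 0.99, interval 0.96 to 1.03), although Col1a1 was 1027 CPM in CCl4 and 129 CPM in healthy cells and Col3a1 2455 and 884 CPM. Col1a2 differed less, with 3028 of 32660781 UMIs in CCl4 and 267 of 3965336 in healthy cells. No background was subtracted from these levels.

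The other members moved in both directions. Loxl3 passed 2-fold (9.09 against 4.29 CPM, ratio 2.12, interval 1.30 to 3.69), but it rested on 17 healthy UMIs and stayed under the 10 CPM that genes needed to enter the count over all genes. P4ha2 passed 2-fold in the other direction, at 12.8 against 28.0 CPM (ratio 0.46, interval 0.37 to 0.57). Loxl1 (ratio 1.55), Plod1 (1.54) and Loxl2 (1.13) were higher by less than 2-fold. Plod2 (0.78) and P4ha1 (0.61) were lower by less than 2-fold, and Plod3 (0.87, interval 0.75 to 1.03) did not differ beyond counting error. Of the 9 members that reached 10 CPM, 1 was higher, where 9.69% of 9292 genes were, and 1 was lower, where 14.7% were. These counts lie near the shares of all genes. With Loxl3 counted as well, 2 members were higher. The median log2 ratio over all genes was -0.13.

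**Figure D4:**
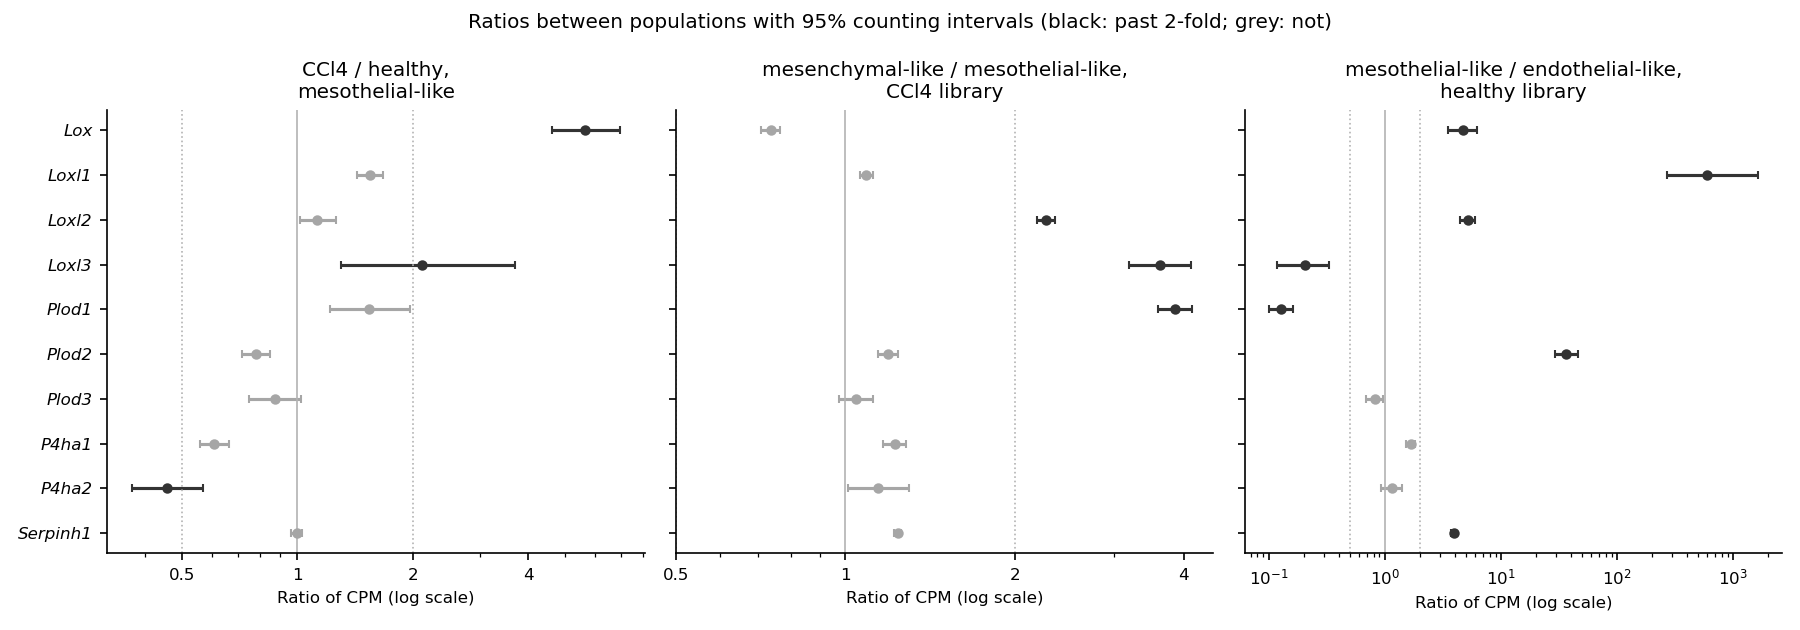
Ratio of CPM (log scale) of each member in 3 comparisons, with 95% counting intervals; dotted lines mark 2-fold and black points passed it. Lox stands at 5.65 between CCl4 and healthy mesothelial-like cells, Plod1 and Loxl3 at 3.85 and 3.63 between mesenchymal-like and mesothelial-like cells, and Loxl1 at 594 between healthy mesothelial-like and endothelial-like cells.

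The healthy and CCl4 cells of this class lay in different clusters. Of the healthy cells, 230 were in a cluster with 12 mesothelial and 6 portal fibroblast markers. The CCl4 cells were in a cluster of 884 led by Prg4 with 12 and 3 of these markers, a cluster of 677 led by Serpinb2 with 5 and 4, and a dividing cluster of 148 with 3 and 4. Lox was 177, 107 and 101 CPM in these clusters, each above the 24.6 CPM of the healthy cluster. P4ha2 was 8.32, 18.1 and 14.2 CPM, each below the healthy 28.6 CPM. Serpinh1 was 781 CPM in the Prg4-led, 1040 CPM in the Serpinb2-led and 1132 CPM in the dividing cluster, around the 951 CPM of the healthy cluster. Keeping only clusters with at least 10 markers, P4ha1 also passed 2-fold lower (ratio 0.46, interval 0.42 to 0.51) and Loxl3 no longer passed (1.55, interval 0.91 to 2.82).

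Among 17 other collagen-processing genes measured in this comparison, 4 were higher in CCl4 cells and 1 was lower. Bmp1 (106 against 39.3 CPM), Crtap, a subunit of the prolyl 3-hydroxylase complex (151 against 59.0 CPM), Fkbp10 (69.4 against 30.5 CPM) and the collagen galactosyltransferase Colgalt1 (97.8 against 46.9 CPM) were higher. Pcolce, an enhancer of procollagen C-proteinase, was lower (211 against 645 CPM). Hypoxia genes also moved, with 4 of 14 measured higher, Adm, Hif1a, Egln3 and Ldha, and 1 lower, Ndrg1 at 76.9 against 553 CPM. Their part in the members' differences was not tested.

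Fewer statements were possible for the mesenchymal-like class, since the healthy library had 10 such cells. These held 100 Serpinh1 UMIs (1228 CPM, interval 999 to 1494), 24 Loxl1 UMIs (295 CPM, 189 to 439) and 14 Loxl2 UMIs (172 CPM, 94.0 to 289). The CCl4 levels of 1144, 299.9 and 241 CPM lay inside these intervals. Lox, Loxl3 and Plod2 had 1 UMI each. In these 10 cells 1 UMI stood for 12.3 CPM with an interval up to 68.4 CPM, which lies below the 104 CPM of Lox and the 145 CPM of Plod2 in CCl4 mesenchymal-like cells but not below the 33.0 CPM of Loxl3.

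Within the CCl4 library, mesenchymal-like and mesothelial-like cells differed by at least 2-fold in 3 members. The others, except Plod3, differed beyond counting error by less. Plod1 was 112 against 29.1 CPM, a ratio of 3.85 (3.59 to 4.13), Loxl3 33.0 against 9.09 CPM (3.63, interval 3.20 to 4.12) and Loxl2 241 against 106 CPM (2.28, interval 2.19 to 2.36). These 3 higher members compare with 11.7% of 9145 genes, and 0 were lower, against 10.8% of genes. Lox was the only member below 1, at 0.74 (0.71 to 0.77). The remaining members lay between 1.04 for Plod3 and 1.24 for Serpinh1. Plod1 thus made up 37.5% of Plod UMIs in mesenchymal-like and 15.3% in mesothelial-like cells. Of 19 other collagen-processing genes measured, 6 were higher, led by P3h2 (32.9 against 1.41 CPM), Adamts2 and P3h3, and P3h4 was lower (59.4 against 217 CPM). Of 13 hypoxia genes, 0 were higher and 6 lower, among them Car9 (7 against 918 UMIs).

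The mesenchymal-like cells consisted mainly of 2 clusters. One of 1533 cells carried all 11 stellate markers and was led by Angptl6 and Colec11, and the other, of 1362 cells, was led by Thbs4, Dpep1 and Mfap4 with 5 stellate and 5 portal fibroblast markers. Loxl1 was the member that set them apart, at 476 CPM in the Thbs4-led and 169 CPM in the Angptl6-led cluster, a ratio of 2.81 (2.70 to 2.92). P4ha2 went the other way, at 8.92 against 19.6 CPM (0.45, interval 0.38 to 0.54), and P4ha1 (0.57) and Loxl2 (0.64) also lay below 1. Thus 1 member was at least 2-fold higher in the Thbs4-led cluster, where 5.74% of 8539 genes were, and 1 was lower, where 3.12% were. Col1a1 was alike in both clusters, at 4498 and 4372 CPM, whereas Col3a1 was 4615 and 10784 CPM. Of 19 other collagen-processing genes measured, 0 passed 2-fold in either direction, and 1 of 11 hypoxia genes, Vegfa, was higher. This comparison was also added after the data were seen.

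Finally, the members were set against the collagen level of single mesenchymal-like cells. The 3207 CCl4 cells were ranked by the share of their UMIs from Col1a1, Col1a2 and Col3a1 and divided into 5 quintiles, with median shares of 0.364% in the lowest and 2.33% in the highest. CPM of the members was computed over UMIs outside these 3 genes. Within 10% of the 2 outer limits lay 194 and 299 cells, so the quintiles are ranges of one score and not cell types. Col3a1 was the largest part of the score, at 7853 CPM, and differed between the main clusters as given above. Col1a2 contributed little, at 132 CPM against 4327 CPM for Col1a1, although both encode chains of type I collagen. In the 10 healthy mesenchymal-like cells they were 676 and 1499 CPM, and the cause was not tested. In healthy mesothelial-like cells they stood at 67.3 and 129 CPM.

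Lox rose most steeply with collagen. It was 42.8, 72.0, 93.8, 126 and 187 CPM from the lowest to the highest quintile, a ratio of 4.39 (3.90 to 4.95) between the outer quintiles. Plod2 was 90.8, 123, 149, 172 and 193 CPM, a ratio of 2.13 (1.95 to 2.33). Loxl2 went from 161 to 320 CPM (1.99, interval 1.86 to 2.13). Intervals of neighbouring quintiles did not overlap for Lox, Plod2 and Loxl2.

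P4ha2 (9.13 to 22.5 CPM, ratio 2.46), P4ha1 (82.8 to 144 CPM, 1.74) and Serpinh1 (851 to 1381 CPM, 1.62) were also higher in the highest quintile. In all, 6 members were at least 1.5-fold higher, where 4.85% of 8730 genes were, and 0 were lower, where 9.54% were. Plod3 (1.23) and Loxl3 (1.31) stayed under 1.5-fold. Plod1 (128 to 104 CPM, ratio 0.82) and Loxl1 (372 to 254 CPM, ratio 0.68) were lower with more collagen. Among 19 other collagen-processing genes, 8 were at least 1.5-fold higher and 0 lower, led by Adamts2 (648 against 267 CPM), the transcription factor gene Creb3l1 (148 against 67.9 CPM) and Pcolce (588 against 301 CPM). Of 11 hypoxia genes 0 were higher and 1, Vegfa, was lower. The median log2 ratio was 0.75 for the members, 0.47 for the collagen-processing list and -0.09 for all genes.

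**Figure D5:**
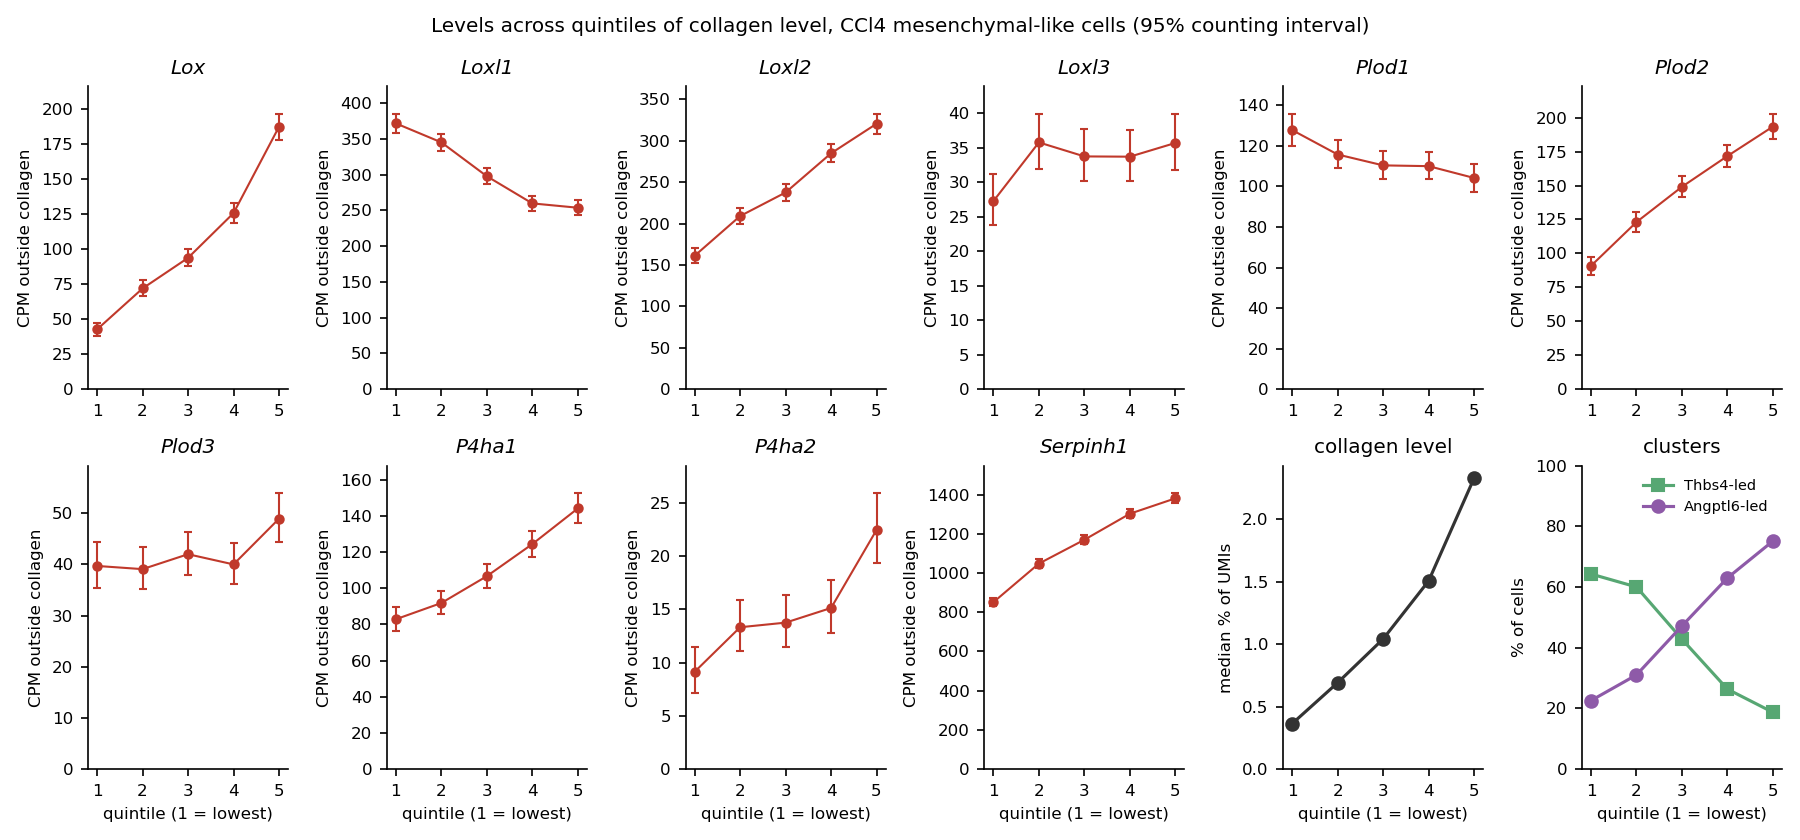
CPM outside the 3 collagen genes across quintiles of collagen level in CCl4 mesenchymal-like cells, with 95% counting intervals, and the collagen level and cluster make-up of each quintile. Lox rises from 42.8 to 187 CPM and Loxl1 falls from 372 to 254 CPM, while the Thbs4-led cluster goes from 64.3% to 18.7% of the cells.

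The make-up of the quintiles changed along the score. The Thbs4-led cluster took 64.3% of the lowest and 18.7% of the highest quintile, and the Angptl6-led cluster 22.6% and 75.2%. Summed mesothelial markers had a median of 124 CPM in the lowest and 0 in the highest quintile, and stellate markers 3720 and 5409 CPM. Median depth ranged from 12643 to 15217 UMIs. The same ratios were therefore taken within each cluster.

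Within the clusters, Lox kept its relation to collagen, with ratios of 3.86 (3.24 to 4.64) in the Thbs4-led and 3.72 (3.17 to 4.38) in the Angptl6-led cluster. Plod2 did so as well, at 2.15 and 1.67. Loxl1 turned. It was 493 and 425 CPM in the lowest and highest quintile of the Thbs4-led cluster (0.86, interval 0.81 to 0.92) but 99.4 and 219 CPM in the Angptl6-led cluster (2.20, interval 1.95 to 2.49). Loxl2 was 2.14 and 1.29, Serpinh1 1.71 and 1.24, P4ha1 1.66 and 1.15, and P4ha2 2.53 and 1.03, so these 4 ratios were larger in the Thbs4-led cluster, and the interval of P4ha2 included 1 in the Angptl6-led cluster (0.75 to 1.41). Loxl3 was 1.57 (1.18 to 2.11) in the Thbs4-led and 1.07 (0.84 to 1.37) in the Angptl6-led cluster. Plod3 was 1.17 and 1.19, with intervals that included 1, and Plod1 was 0.77 and 0.82. With quintiles formed within each cluster and pooled, 3 members passed 1.5-fold in place of 6, and P4ha1 (1.33), P4ha2 (1.31) and Serpinh1 (1.45) no longer did.

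Over single cells, Spearman's rho with the collagen share was 0.36 for Lox, 0.33 for Loxl2, 0.33 for Serpinh1 and 0.27 for Plod2 across the 3207 cells, and 0.10 for total UMIs. It was -0.10 for Loxl1 over all cells and 0.32 within the Angptl6-led cluster. These are descriptions, since the cells share 1 library and low genes have few UMIs per cell.

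Across 23 clusters of 1 library with at least 50 cells, the members' levels were compared on log2(CPM + 10). The most similar pairs were Loxl1 with Plod2 (Pearson's r 0.94) and Loxl3 with Plod1 (0.88). Within the lysyl oxidases, Lox with Loxl1 (0.88), Loxl1 with Loxl2 (0.86) and Lox with Loxl2 (0.84) were about as similar, and Lox with Loxl3 less so (0.49). Plod1 and Plod2 had an r of 0.09. Among 8034 other genes, those most like Lox included Pcdh7 (0.95) and the collagen chaperone Fkbp10 (0.92). Those most like Plod2 were Chpf, Lhfp and Eps8, at 0.96 each. Those most like Serpinh1 were Sparc, a collagen-binding matrix protein (0.96), Crtap (0.94) and Ikbip (0.94). The clusters share 2 libraries, so these values describe the clusters and carry no test.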

How the data were processed

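Single-cell 3′ libraries of liver cells from healthy and CCl4-injured mice were used, 1 per group. The deposited matrices hold UMI counts per gene and cell, which the authors made by trimming reads (fastp), aligning them and counting with featureCounts 1.6.2. The aligner is not clear from the sources used here. The labels name the builds GRCh38 and mm10, and the identifiers are those of mouse genes.

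The matrices were joined on Ensembl identifiers (99.9% and 99.6% of UMIs). Cells with at least 500 UMIs, 200 genes and at most 30% mitochondrial UMIs were kept, and the highest Scrublet scores (0.8% per 1000 cells) were removed, which were 277 and 487 cells. Members, collagens and the collagen-processing list were left out of the 2000 variable genes. Both libraries were clustered together (10 components, 20 neighbours, Leiden resolution 1, scanpy 1.11.5), giving 22 clusters, of which 4 stayed unnamed. A name needed 3 markers that were 2-fold higher than in other cells and seen in 10% of cells. The study may name some of these cells differently.

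Counts were summed per population. As each group had 1 library, no comparison was tested. All-gene percentages used genes of at least 10 CPM in either population, and 0 UMIs were read as allowing up to 3. All 10 members were reported, and collagen-processing genes were named in order of their ratio among those past the fold. Hypoxia genes were named after their values were seen. Members and lists were chosen with earlier results of these data known. The ratio calculation was tested on simulated data. One gene among those most like Lox is not reported here.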

Additional observations from a re-analysis of the deposited data

How the results depend on the processing

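The limits are 1 library per condition, names rebuilt from markers, and few cells of most classes in one library or the other. Members' log2 ratios were recomputed in 610 combinations of ratio and alternative. No counted member reversed, 507 values stayed inside the counting interval of the reported ratio and 103 left it. Of 99 recomputed counts, 90 stayed within 1.5 times. The 2 members higher in CCl4 than healthy mesothelial-like cells became 1, without Loxl3, with at most 10% mitochondrial UMIs, at least 1000 UMIs, 30 principal components, each library clustered on its own, mesothelial-like clusters with at least 10 markers, or without dividing clusters, where its ratio was between 1.55 and 1.97. The 1 lower member became 0 with CPM taken without the 50 most abundant genes (P4ha2 0.50) and 2 with clusters of at least 10 markers. The 6 members higher with collagen became 3 with quintiles formed within each cluster and 7 with the unnamed clusters added, and Serpinh1 missed 1.5-fold with 3 equal groups in place of 5 (1.47) or with every cell weighing the same (1.48). The 9 members higher than in immune-like cells were at least 7, with Plod1 and P4ha1 near the fold. Unnamed clusters, the alternative with at least 10 markers, the one without dividing clusters and CPM without mitochondrial, ribosomal protein and globin genes were added after the data were seen. The cause of these changes was not tested. No paired analysis was possible because each group had 1 library.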

Other observations

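A CCl4 cluster of 642 cells had 10 endothelial markers but was led by Esm1 and globin genes and stayed unnamed. Plod1 was 174 CPM there, P4ha1 79.8 CPM, Plod3 50.9 CPM and Plod2 6.98 CPM, against 147, 88.0, 55.6 and 4.29 CPM in the endothelial-like cells of the healthy library. P4ha2 was lower, at 11.9 against 24.5 CPM, and Loxl1 higher, at 9.30 CPM (40 UMIs) against 0.299 CPM (6 UMIs). Loxl2, which crosslinks basement membrane collagen, was 59.8 CPM there and 18.2 CPM in healthy endothelial-like cells, and Serpinh1 was 304 and 237 CPM. In this cluster Loxl1 lay below the 20.5 CPM of the CCl4 immune-like cells, and Loxl2 lay above their 16.1 CPM. Col1a1 stood at 156 CPM in this cluster, in the range of the CCl4 immune-like classes, and the part of free RNA in its member levels was not tested.

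Another unnamed CCl4 cluster of 872 cells had 14 mesenchymal markers and a median of 1388 UMIs. Its Col1a1 was 5432 CPM, Loxl1 242 CPM, Loxl2 194 CPM and Plod2 160 CPM. Its Serpinh1, at 686 CPM, was below the 1144 CPM of mesenchymal-like cells.

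In healthy macrophage and monocyte-like cells, of which there were 14, Plod1 had 30 UMIs and P4ha1 17, while Serpinh1 had 1.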
